A study of Mus musculus with 10 samples.

Results

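The genes described here encode 10 RNA-binding proteins that control alternative splicing in striated muscle, Mbnl1, Mbnl2, Mbnl3, Celf1, Celf2, Rbfox1, Rbfox2, Rbm20, Rbm24 and Qk. They were chosen by name and by no threshold on their values, though with earlier results of these data known. The deposited table lists 54232 genes by Ensembl identifier, and each symbol matched 1 row. The table holds a value for each of 10 mice. Of the 10 genes, 9 reached the expression limit used for testing (a mean of at least log2(10)), and Mbnl3 did not.

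The RNA came from gastrocnemius, a mostly fast calf muscle, of 5 homozygous desmin knock-out mice (Des -/-, DesKO) and 5 wild-type mice (Des wt/wt, DesWT) at 3 months of age. All 10 mice carry the strain label B6J.129Sv-Destm1Cba/Cscl, the methods call the wild-type mice littermates, and the labels name no treatment. The knock-out is present in all cells from conception, so changes within fibers, in other cells of the muscle and in its cell composition come together in the whole-muscle RNA. The methods speak of pooled RNA of the 5 muscles per genotype, whereas the table has 1 column per mouse, which was used as 1 replicate. The labels and methods name gastrocnemius alone, while other passages of the paper name the neighbouring plantaris muscle as well, so RNA of plantaris may be included. Values are in rlog units (regularized logarithm, base 2), in which each library is scaled for its size and noisy values are shrunk to the gene's average, so differences tend to be smaller than those of the underlying counts.

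Alternative splicing joins the exons of a transcript in different combinations, and in muscle it switches contractile, calcium-handling and channel proteins from embryonic to adult forms. MBNL proteins (muscleblind-like) favour the adult forms, and they are trapped by expanded repeat RNA in myotonic dystrophy, whereas CELF proteins often act against them on the same exons. RBFOX proteins act on exons next to UGCAUG elements, RBM20 and RBM24 shape sarcomeric transcripts such as titin, and QK (quaking) is a STAR-family protein that acts in muscle, glia and endothelium. The values are totals per gene, so they show how much transcript of each regulator was present and not which exons were used.

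Des, the targeted gene, checked the labels. Its rlog values lay between 16.10 and 17.74 in wild-type and between 11.76 and 11.89 in desmin knock-out mice, so every library carried the level of its label (difference -4.73, standard error 0.25, limma adjusted p = 1.5e-07, and exact permutation p = 0.00794, two-sided, the smallest that 5 against 5 allows). The tissue label was met by the fiber genes, with Ckm at 19.41 to 20.84 and Acta1 at 19.74 to 21.18 over all mice, and 3 of 8 cardiac genes reached the expression limit. The summed linear values, which are no sequencing depth, were 1.48 times their median for wild-type mouse 3 and 0.949 to 1.06 times for the other mice. Wild-type mouse 3 was the lowest wild-type mouse for 32.5% of tested genes and for 7 of the 9 tested regulators, so the values below are given with and without this mouse. A mean of 4 Y-linked transcripts ranged from 9.52, in wild-type mouse 3, to 10.62, and was far above the expression limit in all 10 mice.

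In desmin knock-out muscle 1 of the 9 tested regulators, Rbfox2, was higher than in wild-type muscle with an adjusted p (limma) under 0.05. Of all 14289 tested genes, 13.7% passed this threshold and 7.7% passed as higher. At an unadjusted p under 0.05 there were 3 of 9 (Rbfox2, Qk and Mbnl2), where 27.6% of all tested genes had such a p. The other 8 regulators did not pass. Their differences were between -0.19 (Rbfox1) and 0.58 (Qk) on the log2 scale. Rbfox2 was also the only tested regulator without overlap between the genotypes, a separation seen in 14.4% of tested genes. The knock-out mean was higher for 7 regulators and lower for 2, and it was higher for 7080 of all 14289 tested genes. The median difference of the regulators was 0.12, compared with -0.0029 over all tested genes. Without wild-type mouse 3 this median was 0.020, and the differences of Mbnl1 (-0.20) and Celf1 (-0.0067) turned negative. In that fit Rbfox1 passed in addition, as lower, where 17.5% of all tested genes passed, and Rbfox1 and Rbfox2 were the 2 regulators without overlap, which 17.8% of tested genes then showed.

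**Figure D1:**
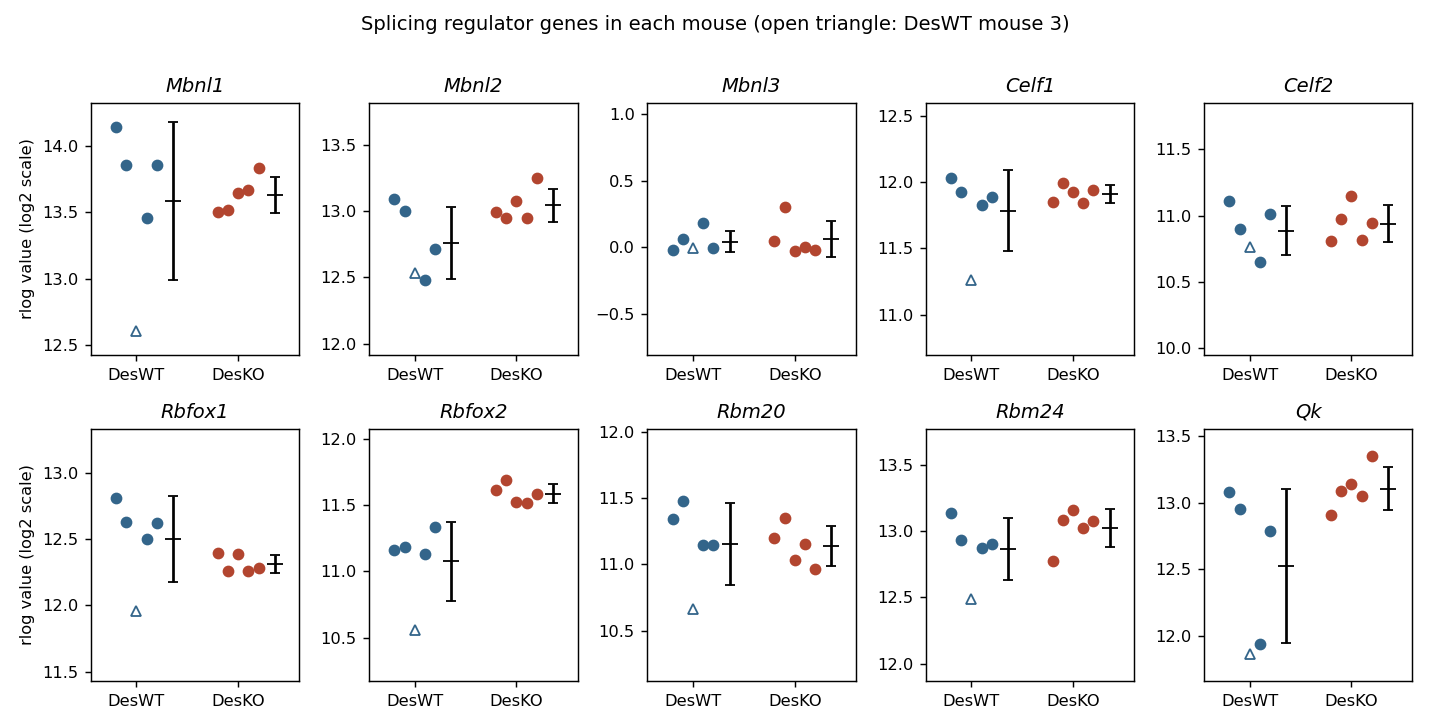
Deposited rlog value (log2 scale, vertical axis) of each regulator in the 5 wild-type (DesWT) and 5 desmin knock-out (DesKO) mice, with 1 point per mouse, the open triangle for wild-type mouse 3 and the mean with SD beside the points. All panels span the same height; the 5 Rbfox2 values of desmin knock-out mice, 11.52 to 11.69, lie above the highest wild-type value of 11.34.

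The RBFOX family gave the clearest contrast. Rbfox2 (ENSMUSG00000033565, chromosome 15 of GRCm38, 77078990 to 77307004, reverse strand), the broadly expressed member, had rlog values of 11.61, 11.69, 11.52, 11.52 and 11.58 in desmin knock-out mice 1 to 5. The wild-type values were 11.16, 11.18, 10.56, 11.13 and 11.34. All knock-out values were above all wild-type values, with wild-type mouse 3 far below the other wild-type mice. Means were 11.58 ± 0.07 for knock-out and 11.08 ± 0.30 for wild-type mice (both SD, n = 5). The log2 difference was 0.51 (standard error 0.13, 95% interval 0.24 to 0.78, adjusted p = 0.0165 from limma). This corresponds to a 1.42-fold higher level on the rlog scale. With wild-type mouse 3 left out it was 0.38 (95% interval 0.23 to 0.53, adjusted p = 0.00164 from limma).

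Rbfox1 (ENSMUSG00000008658, chromosome 16, 5885355 to 7411526, forward strand), the member expressed mainly in muscle, heart and neurons, had the opposite sign. Its values were 12.39, 12.26, 12.39, 12.26 and 12.28 in desmin knock-out mice 1 to 5 and 12.81, 12.63, 11.96, 12.50 and 12.62 in wild-type mice 1 to 5. Each knock-out value was below 4 of the wild-type values and above that of wild-type mouse 3. With all mice the log2 difference was -0.19 (standard error 0.14, 95% interval -0.48 to 0.10), which did not pass (adjusted p = 0.398, limma). With that mouse left out it was -0.32 (standard error 0.07, 95% interval -0.48 to -0.17), and all knock-out values were then below all wild-type values (adjusted p = 0.00816, limma). With all 10 mice kept, Rbfox1 passed when mice were weighted by their spread (-0.38, adjusted p = 5.0e-04, limma). In that fit 4220 of all 14289 tested genes passed. It also passed with the mean Y-linked level as covariate (-0.35, adjusted p = 0.0176, limma), where 2090 genes passed. Both fits can lower the influence of wild-type mouse 3, which had the lowest Y-linked mean (9.52). They are therefore not independent of leaving that mouse out. Rbfox1 did not pass in 17 of 21 alternatives, and in none was its sign positive, though some alternatives cannot change the difference.

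The difference between both genes within a mouse does not depend on the scaling of that mouse. Rbfox2 minus Rbfox1 was -0.78, -0.57, -0.86, -0.74 and -0.70 in desmin knock-out mice 1 to 5, and -1.64, -1.45, -1.40, -1.36 and -1.29 in wild-type mice 1 to 5. Wild-type mouse 3 lay within the range of its genotype by this measure, and the genotypes were 0.42 apart at their nearest values. The means were -0.73 ± 0.11 (SD, n = 5) and -1.43 ± 0.13 (SD, n = 5), 0.70 higher in desmin knock-out muscle with and without wild-type mouse 3. This pair was picked after its values had been seen, so it is given without a test.

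**Figure D2:**
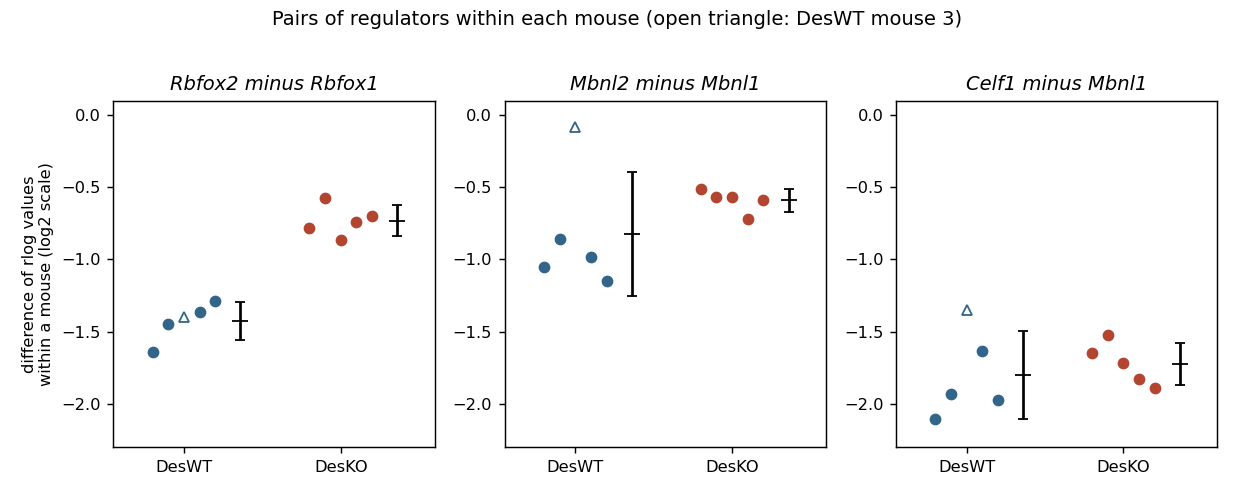
Difference of the rlog values of a pair of regulators within each mouse (log2 scale, vertical axis) in wild-type (DesWT) and desmin knock-out (DesKO) mice, with the open triangle for wild-type mouse 3 and the mean with SD beside the points. For Rbfox2 minus Rbfox1 all 10 mice separate by genotype, whereas wild-type mouse 3 has the highest value in the other panels.

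RefSeq lists 2 start windows of Rbfox1 on GRCm38.p6, 1185 kb apart, which are shown because the gene-level values do not separate transcripts by their start. GENCODE M21, the annotation used here, lists 8 transcripts of Rbfox1. Of these, 1 starts in the downstream window, at 7069846, and none in the upstream window, since the first annotated start, at 5885355, lies 513 bases beyond its end. Each covers 250 bases before to 50 after a start, 5′ to 3′ on the forward strand. Matches to the E-box CAGCTG, bound by myogenic factors such as MyoD, are in capitals, and the MEF2 element CTANNNNTAG was searched too. Both motifs read the same on both strands and do not overlap here.
Rbfox1, chr16:5884543-5884842: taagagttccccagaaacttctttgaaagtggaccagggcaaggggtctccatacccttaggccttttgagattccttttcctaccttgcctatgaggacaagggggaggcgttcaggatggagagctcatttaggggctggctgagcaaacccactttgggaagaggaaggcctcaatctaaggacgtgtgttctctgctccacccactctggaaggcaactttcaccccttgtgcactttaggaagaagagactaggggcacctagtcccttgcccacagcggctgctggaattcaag
Rbfox1, chr16:7069585-7069884: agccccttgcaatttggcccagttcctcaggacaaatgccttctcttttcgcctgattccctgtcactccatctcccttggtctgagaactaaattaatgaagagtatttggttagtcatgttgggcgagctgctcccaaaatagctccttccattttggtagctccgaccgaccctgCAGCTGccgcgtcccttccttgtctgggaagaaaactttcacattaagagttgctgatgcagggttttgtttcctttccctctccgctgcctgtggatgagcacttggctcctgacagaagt
The downstream window holds 1 E-box and the upstream window none. The E-box occurs in 16.3% of all 32851 listed promoter windows and in 1 of 14 windows of the 8 regulators listed there. MEF2 elements occur in 3.69% of all windows and in 0 of those 14. A match is a run of letters and no evidence of binding. Rbfox2 and Rbm20 are not in the table of windows used here.

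Qk, which encodes quaking, had the largest difference among the regulators and did not pass the threshold. Qk (ENSMUSG00000062078, chromosome 17, 10202601 to 10319854, reverse strand) had values of 12.91, 13.09, 13.14, 13.05 and 13.35 in desmin knock-out mice 1 to 5. The wild-type mice fell apart, with 13.08, 12.95 and 12.79 in mice 1, 2 and 5, and 11.86 and 11.93 in mice 3 and 4. Of 5 knock-out values 3 exceeded all wild-type values. The log2 difference was 0.58 (standard error 0.22, 95% interval 0.11 to 1.06, unadjusted p = 0.0202 and adjusted p = 0.102, limma). Without wild-type mouse 3 it was 0.42 (adjusted p = 0.153, limma), without wild-type mouse 1 it was 0.72 (adjusted p = 0.0399, limma), and after removal of each mouse's trend on GC content and length it was 0.45 (adjusted p = 0.0425, limma). It was smaller and did not pass with sample weights (0.24, adjusted p = 0.148, limma) or the Y-linked covariate (0.26, adjusted p = 0.116, limma).

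Of the MBNL family, Mbnl1 is the main adult muscle member, Mbnl2 is its close relative, and Mbnl3 is known from proliferating precursors. Mbnl1 (ENSMUSG00000027763, chromosome 3, 60472830 to 60629750, forward strand) had rlog values of 13.50, 13.52, 13.65, 13.67 and 13.83 in desmin knock-out and 14.14, 13.86, 12.61, 13.46 and 13.86 in wild-type mice 1 to 5. Knock-out values lay inside the range of the wild-type values. Their difference of 0.05 had a 95% interval from -0.44 to 0.53 (adjusted p = 0.913, limma). If that of mouse 3 was left out, the difference was -0.20 (95% interval -0.45 to 0.06, adjusted p = 0.302, limma), so the sign depended on this mouse.

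Mbnl2 (ENSMUSG00000022139, chromosome 14, 120275669 to 120431697, forward strand) averaged 13.04 ± 0.13 for knock-out and 12.76 ± 0.27 for wild-type mice (both SD, n = 5). Single values were 12.99, 12.95, 13.08, 12.95 and 13.25 against 13.09, 13.00, 12.53, 12.48 and 12.71. The groups overlapped through wild-type mice 1 and 2. The difference of 0.28 (95% interval 0.0089 to 0.56, unadjusted p = 0.0439) missed the threshold after adjustment (adjusted p = 0.167, limma). Within a mouse, Mbnl2 minus Mbnl1 was -0.72 to -0.51 for the knock-outs. For the wild types it was -1.15 to -0.86, apart from mouse 3 with -0.080. The mean of this pair was higher by 0.23 in desmin knock-out muscle with all mice and by 0.42 without wild-type mouse 3.

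Mbnl3 (ENSMUSG00000036109, chromosome X, 51117269 to 51206532, reverse strand) lay between -0.026 and 0.30 in all 10 mice, far below the expression limit. No difference was detectable at this level (0.02, 95% interval -0.12 to 0.16, from the fit without an expression limit, adjusted p = 0.895, limma). Its level cannot be turned into an amount, since rlog values of genes with few reads are drawn to the gene's mean.

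The CELF genes did not differ detectably. Celf1 (ENSMUSG00000005506, chromosome 2, 90940382 to 91019497, forward strand), known for favouring embryonic exons and for destabilizing GU-rich mRNAs, had 11.85, 11.99, 11.93, 11.84 and 11.94 in desmin knock-out mice 1 to 5. Wild-type mice had 12.03, 11.92, 11.26, 11.83 and 11.88. Apart from wild-type mouse 3, all values lay between 11.83 and 12.03. The difference was 0.12 (95% interval -0.15 to 0.40) with all mice and -0.0067 (95% interval -0.15 to 0.14) without wild-type mouse 3, which on the rlog scale leaves room for 0.900-fold to 1.32-fold with all mice.

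Celf2 (ENSMUSG00000002107, chromosome 2, 6539694 to 7509563, reverse strand) had 10.81, 10.97, 11.15, 10.81 and 10.95 in desmin knock-out and 11.11, 10.90, 10.76, 10.65 and 11.01 in wild-type mice 1 to 5. The values of both genotypes covered almost the same range, and the difference was 0.05 (95% interval -0.18 to 0.28). Neither CELF gene passed (adjusted p = 0.565 for Celf1 and 0.787 for Celf2, limma). Celf1 minus Mbnl1, a balance between opposing factors, was -1.72 ± 0.15 for knock-out and -1.80 ± 0.31 for wild-type mice (both SD, n = 5). These values overlapped widely, from -1.89 to -1.52 and from -2.11 to -1.35.

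RBM20 and RBM24 act on sarcomeric transcripts. Rbm24 (ENSMUSG00000038132, chromosome 13, 46418434 to 46431095, forward strand) had 12.78, 13.08, 13.16, 13.02 and 13.08 in desmin knock-out and 13.13, 12.93, 12.49, 12.87 and 12.90 in wild-type mice 1 to 5. Knock-out mice 2 to 5 lay above wild-type mice 2 to 5, knock-out mouse 3 lay above all wild-type mice, and the groups overlapped. The difference was 0.16 (95% interval -0.10 to 0.42, adjusted p = 0.425, limma), and 0.06 without wild-type mouse 3. Rbm20 (ENSMUSG00000043639, chromosome 19, 53677306 to 53867080, forward strand), the titin splicing factor, had 11.20, 11.35, 11.03, 11.15 and 10.96 against 11.34, 11.48, 10.67, 11.15 and 11.14. The groups overlapped throughout, and the difference was -0.02 (95% interval -0.31 to 0.28, adjusted p = 0.951, limma).

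**Figure D3:**
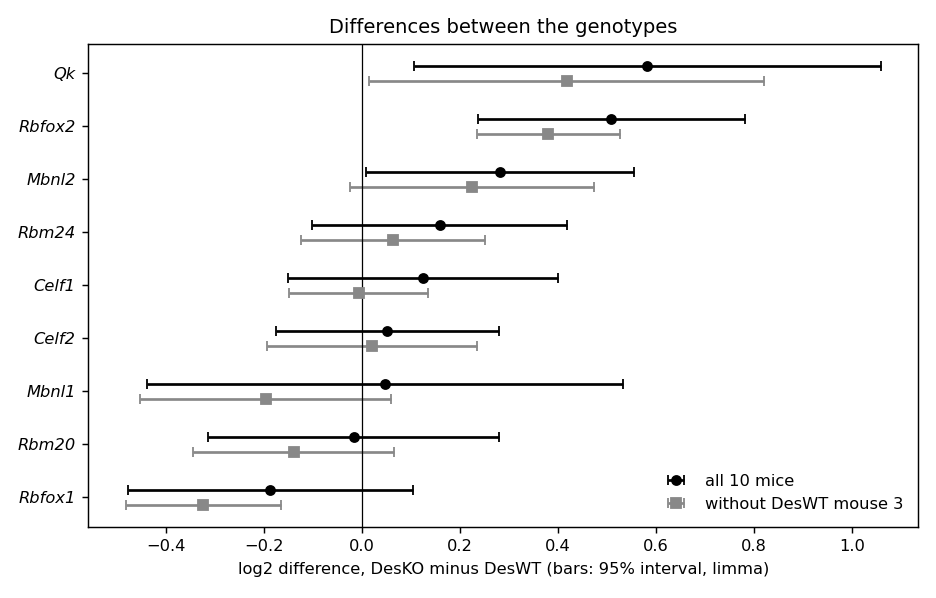
Log2 difference between desmin knock-out and wild-type muscle (horizontal axis, rlog scale, bars for 95% intervals from limma) of the 9 tested regulators, with all 10 mice (circles) and without wild-type mouse 3 (squares). Without this mouse each difference is lower and the intervals are narrower, and the interval of Rbfox1 lies below 0 from -0.48 to -0.17.

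Levels of different genes were compared per exon length, as the rlog value minus log2 of the summed exon length in kb. In wild-type muscle Rbm24 was highest with 11.06 ± 0.24 (SD, n = 5), above 95.3% of tested genes, and its values did not overlap those of any other regulator. Rbfox1 followed with 10.37 ± 0.32, and then Mbnl1 with 9.36 ± 0.60, Mbnl2 with 9.18 ± 0.27, Celf1 with 8.71 ± 0.30, Qk with 8.69 ± 0.58, Rbm20 with 8.39 ± 0.31 and Rbfox2 with 8.05 ± 0.30 (each SD, n = 5). From Rbfox1 down to Rbfox2 each gene overlapped the next in its wild-type values, so neighbours in this order were not separated. Celf2 was lowest with 6.19 ± 0.18, near the middle of all tested genes (above 48.1%), and lay 1.86 below Rbfox2 without overlap. Most of this gap came from the summed exon lengths, 25.9 kb for Celf2 and 8.14 kb for Rbfox2. Their wild-type rlog means before that step were 10.89 and 11.08, with overlapping values. In desmin knock-out muscle Rbm24, Rbfox1 and Celf2 held the same ranks, and the pairs Mbnl1 and Mbnl2, Celf1 and Qk, and Rbm20 and Rbfox2 changed places.

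**Figure D4:**
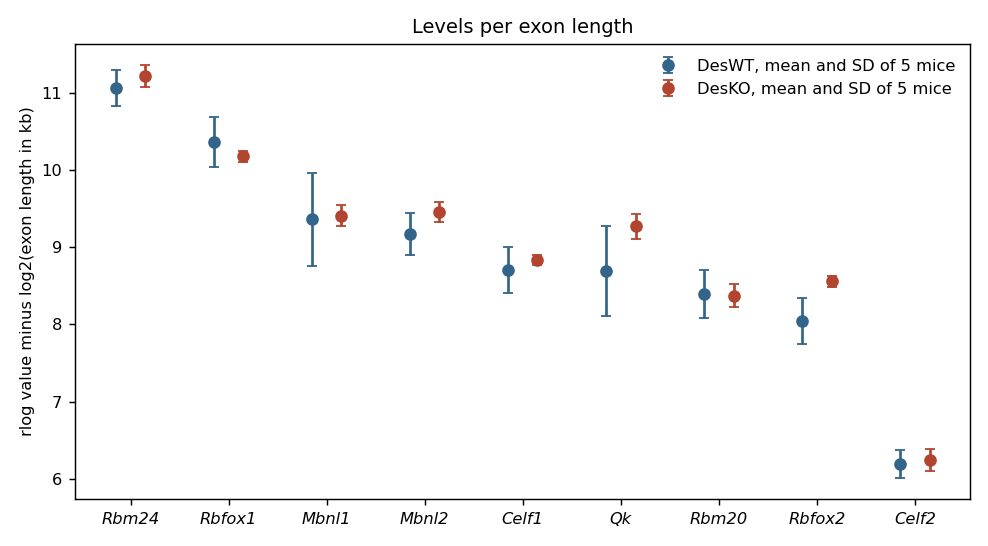
Level per exon length (rlog value minus log2 of the exon length in kb, vertical axis) of the 9 tested regulators in wild-type (DesWT) and desmin knock-out (DesKO) mice, as mean and SD of 5 mice each. Rbm24 is highest with 11.06 in wild-type and 11.22 in desmin knock-out muscle, and Celf2 is lowest with 6.19 and 6.24.

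By median the regulators had a longer summed exon length than all tested genes. Rbm24 (3.49 kb) lay below the median of all tested genes, and Rbfox1 (4.4 kb) lay near it. The summed exon length of the 9 tested genes was 3.49 to 25.9 kb with a median of 8.45 kb, compared with 4.23 kb over all tested genes, and their median GC content was 46.6% compared with 49.7%. This length takes in all annotated isoforms. None of the 10 genes lies on chromosome 1, which carries Des. Exons of Celf2 and Mbnl2 overlap exons of a noncoding gene on the opposite strand, of which Gm26565 (beside Celf2) is listed at 0 in all mice and Gm26679 (beside Mbnl2) had a mean of -1.49.

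Most other members of the same families were under the expression limit. Of Celf3, Celf4, Celf5, Celf6, Rbfox3 and Rbm38, 1 reached the expression limit. This was Rbm38, an RNA-binding relative of Rbm24, with a mean rlog value of 12.27 and no difference that passed (-0.16, adjusted p = 0.454, limma).

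Other splicing regulators were looked at with a list of 63 SR proteins, hnRNPs, their kinases and related factors, of which 61 were tested. Of these, 3 (4.92%) passed the threshold, compared with 13.7% of all tested genes. Khdrbs3, a STAR-family protein related to quaking, rose by 0.55 (standard error 0.14, adjusted p = 0.0175, limma), with knock-out values of 9.51 to 9.79 above wild-type values of 8.61 to 9.41. Fubp1 rose by 0.46 (adjusted p = 0.0457, limma). Nova2, best known from neurons, fell by 0.52 (adjusted p = 0.0246, limma) at a low level of 4.65 ± 0.15 against 5.17 ± 0.27 (SD, n = 5).

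The call was lost in 11 of 21 alternative analyses for Fubp1, in 10 of 20 for Nova2 and in 2 of 21 for Khdrbs3, 1 of them without knock-out mouse 2 (adjusted p = 0.0519, limma). The other 58 did not pass. Of the 61, 49 had a higher mean in desmin knock-out muscle, compared with 7080 of all 14289 tested genes, and the median difference was 0.17. With wild-type mouse 3 left out the median was 0.065, and 7 of the 61 passed, where 17.5% of all tested genes passed. Srsf11 (0.28), Rbm25 (0.31), Rbpms (-0.46) and Clk3 (-0.24) were added in that fit. Without knock-out mouse 2, 0 passed, where 1411 of all 14289 tested genes did. The summed level of the list in wild-type mouse 3 was 16.57 on the log2 scale, while the other wild types had 17.16 to 17.38 and the knock-outs 17.28 to 17.41.

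Genes whose exons are known to be spliced by these regulators were followed in 3 lists with 45 different genes, of which 44 were tested. Their gene totals do not show whether exon use changed. Of these, 8 passed (18.2%, compared with 13.7% of all tested genes), 5 as higher and 3 as lower, and the median difference was -0.0085. Leaving out wild-type mouse 3 gave 15, 8 as higher and 7 as lower, where 17.5% of all tested genes passed. Leaving out knock-out mouse 2 gave 5, where 1411 of all 14289 tested genes passed.

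Of 22 tested MBNL and CELF targets, 1 rose and 3 fell. Tnnt2, the cardiac and embryonic troponin T, rose by 1.32 (standard error 0.17, adjusted p = 1.3e-04, limma), with knock-out values of 8.07 to 8.98 and wild-type values of 6.89 to 7.34. Trim55, a muscle RING-finger protein, had a difference of -0.38 (adjusted p = 0.00498), the chloride channel gene Clcn1 of -0.36 (adjusted p = 0.00765) and the actin capping gene Capzb of -0.34 (adjusted p = 0.0297, each limma), and all knock-out values of these 3 genes were below all wild-type values. Capzb lost its call in 9 of 21 alternative analyses, and the other 3 genes kept theirs.

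Of 14 tested RBM20 targets, 2 rose. Camk2d, a calcium and calmodulin-dependent kinase, rose by 1.07 (standard error 0.16, adjusted p = 4.8e-04, limma), from 11.36 ± 0.40 to 12.43 ± 0.06 (SD, n = 5), and Lmo7 by 0.37 (adjusted p = 0.0261, limma, lost in 8 of 21 alternative analyses). Ttn, the best known target of RBM20, had a difference of -0.13 that did not pass (adjusted p = 0.681, limma). Of 14 tested targets of RBFOX, QK and RBM24, 2 rose and 1 fell. Enah, an actin regulator, rose by 0.76 (standard error 0.15, adjusted p = 0.00397, limma) without overlap between the genotypes. Fn1, which encodes fibronectin, rose by 0.52 (adjusted p = 0.0169, limma), and Capzb, which is in this list too, fell.

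**Figure D5:**
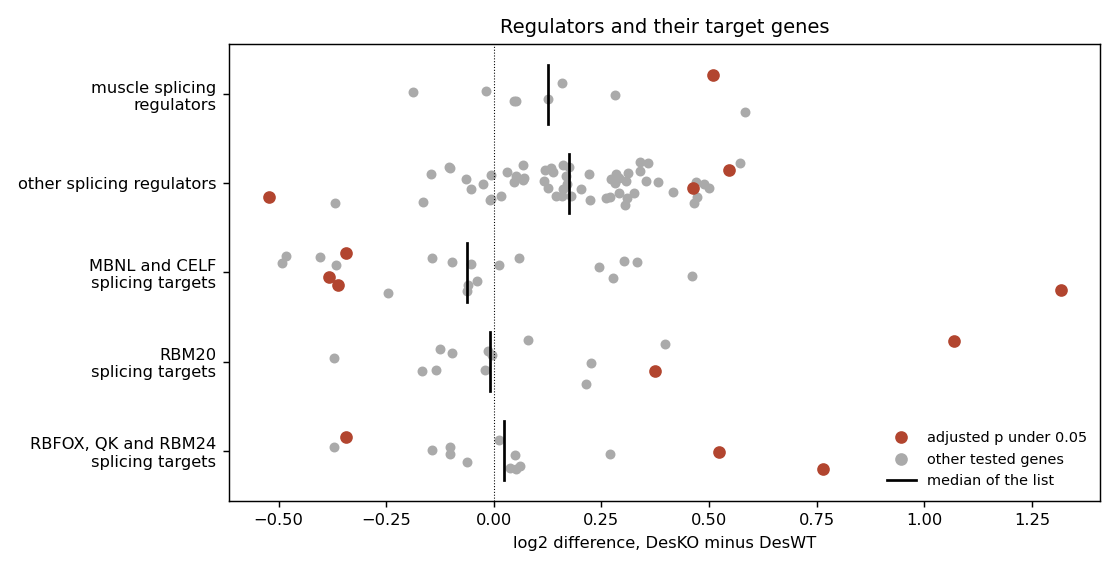
Log2 difference between desmin knock-out and wild-type muscle (horizontal axis) of each tested gene of the muscle splicing regulators, the other splicing regulators and 3 lists of splicing targets, with genes at an adjusted p under 0.05 (limma) in red and the median of each list as a bar. The medians lie between -0.062 and 0.17, and Tnnt2, at 1.32, is farthest to the right.

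Markers of several cell types differed between the genotypes. Since whole muscle was sequenced, fewer cells of a type and less RNA per cell cannot be told apart. In the list for myoblasts and regenerating fibers 5 of 11 tested genes rose and 1 fell. Myh3 (2.25), Mymk (1.93) and Mymx (1.35) came first (adjusted p from 5.9e-06 to 2.9e-05, limma). The summed level of this list on the log2 scale was 13.36 to 13.44 in desmin knock-out and 12.77 to 13.27 in wild-type mice. Summed levels, here and below, add linear values, so the most abundant genes of a list weigh most. In this list it was Myf6, with means of 12.78 in knock-out and 12.44 in wild-type mice, which did not pass (adjusted p = 0.0871, limma). Fibroblast genes rose in 5 and fell in 2 of 10, with Postn (1.95), Ly6a (-0.40) and Col1a2 (0.64) first, and summed levels of 14.12 to 14.71 against 13.74 to 14.57. Endothelial genes fell in 6 of 10, with Flt1 (-0.59), Vwf (-0.62) and Cdh5 (-0.52) first, and their summed levels of 12.33 to 12.71 lay below the wild-type levels of 12.78 to 13.10. None of the genes in these 3 lists had a mean under 1. Whether these shifts had a part in the values of Rbfox2 was not tested.

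In the fiber lists, 3 of 10 slow genes rose and 1 fell, with Tnnt1 (1.70), Casq2 (1.01) and Tnni1 (0.91) first, and summed levels were 15.17 to 15.69 against 14.63 to 15.70. Of 12 fast genes 1 rose (Myh2, 0.77) and 2 fell (Actn3, -0.97, and Myh4, -0.71), and the summed level was 22.22 to 22.43 in desmin knock-out mice, below 22.46 to 23.33 in wild-type mice, with wild-type mouse 3 highest. Of 9 general fiber genes 1 fell (Myh4), with summed levels of 22.13 to 22.29 against 22.36 to 23.28. The call for Myh4 was lost in 13 of 21 alternative analyses. Their part in the regulators' values was not tested either.

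Of 12 macrophage and 9 adipocyte genes none passed with limma, and 1 of each list had an unadjusted p under 0.05. Summed levels were 11.42 to 11.91 in knock-out and 11.45 to 11.80 in wild-type mice for macrophages, and 14.61 to 14.83 and 14.84 to 15.30 for adipocytes. Of 10 Schwann cell genes Erbb3 rose (0.74), with summed levels of 11.16 to 11.58 in knock-out and 10.81 to 11.59 in wild-type mice. Of 10 smooth muscle and pericyte genes Cspg4 rose (1.02) and Kcnj8 fell by 0.53, with summed levels of 14.23 to 14.44 and 14.33 to 14.84. In the lymphocyte list 3 of 12 genes were tested, of which Zap70 (1.16) and Cd28 (0.68) rose, with summed levels of 8.84 to 8.99 above 8.05 to 8.63. In the cardiac list 3 of 8 were tested, of which Myl4 (1.31) and Tnni3 (0.52) rose, with summed levels of 9.64 to 9.92 above 7.90 to 9.08. In each of these 2 lists 4 genes had a mean under 1. The sums mainly followed Cd28 for lymphocytes and Myl4 for the cardiac list (means 9.66 and 8.35 in knock-out and wild-type mice). That of the adipocyte list mainly followed Lpl (14.20 and 14.58).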

How the data were processed

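Per the labels, libraries came from a stranded mRNA kit, and the submitters' processing notes name cutadapt 2.5, STAR 2.5.4a, featureCounts (Subread 1.6.1), and GRCm38. The authors used DESeq2. Whether reads were counted by strand is not given in the sources used here. The authors deposited rlog values on a log2 scale for 54232 genes, with 26079 at 0 in all mice. No counts were used here, so depth and counting error are unknown, and shrinkage makes differences smaller. No pair of columns was identical.

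Symbols, positions and exon lengths came from GENCODE M21 (GRCm38), which holds 54165 of the genes, and promoter windows from RefSeq (GRCm38.p6). The test was limma's moderated linear model (limma 3.58.1, R 4.3.3, two-sided, prior variance following the mean level, Benjamini-Hochberg adjustment, threshold 0.05), run on the 14289 genes whose mean reached log2(10). It replaces the count test that the authors ran with DESeq2. The fit was checked on made-up data with known changes and independent noise of equal spread in all mice. That check holds no mouse set apart like wild-type mouse 3. Separate columns are taken as separate mice, as labelled. p-values measure the spread between these columns.

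The regulators and gene lists were chosen with earlier results of these data known. Named genes were the regulators, Des, up to 6 passing genes with the smallest adjusted p per splicing list and up to 3 per cell or fiber list, and the 3 genes most alike in pattern to each of the 3 regulators with the smallest adjusted p. Of these, 1 gene is not reported here. Some genes were named beside this rule after their values were seen. They were Ckm, Acta1, Ttn, Myf6, Lpl, Myl3 and Myh7, and the annotated neighbours Gm26565 and Gm26679. The other family members and genes that passed only without wild-type mouse 3 were also named in this way. Alternatives were other limits on expression, quantile normalization, median centring, sample weights, one prior variance for all genes, the replicate number as a block, Y-linked transcripts as a covariate, removal of each mouse's trend on GC content and length, an adjusted p under 0.01 and each mouse left out.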

Additional observations from a re-analysis of the deposited data

Results flagged for a closer look

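In each genotype a mouse was looked for whose gap to its nearest neighbour took up more than 0.71 of the range of the 5 mice. Of 28 such groups (10 regulators, Des and 3 pairs of regulators), 5 had such a mouse, where chance gives about 1.4. Wild-type mouse 3 was the one in 4 of them. It had the lowest wild-type value of Celf1, 11.26, with the next at 11.83, and of Rbfox2, 10.56, with the next at 11.13. It had the highest wild-type value of Des, 17.74, with the next at 16.55, and of Mbnl2 minus Mbnl1, -0.080, with the next at -0.86. The fifth was Mbnl3 in desmin knock-out mouse 2, 0.30, with the next at 0.046, at a level under the expression limit. What sets wild-type mouse 3 apart was not tested.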

How the results depend on the processing

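Rbfox2 kept its direction in all 21 alternatives, between 0.38 and 0.57. Other expression limits, one prior variance, the replicate block and the stricter threshold cannot change a difference, here or for the genes below. The adjusted p of Rbfox2 lay between 2.7e-04 and 0.0493 (limma), so it passed in all but that with an adjusted p under 0.01. Rbfox1 stayed negative, between -0.38 and -0.11 (adjusted p from 5.0e-04 to 0.644), Qk positive, between 0.24 and 0.72 (adjusted p from 0.0399 to 0.213). Mbnl2 and Rbm24 stayed positive and did not pass in any. With sample weights 3 of the 9 tested regulators passed, beside 4220 of all 14289 tested genes. They were Rbfox1, Rbfox2 and Rbm20, the last at -0.24 with adjusted p = 0.0446 (limma). The Y-linked covariate gave 2 regulators beside 2090 genes, and removal of GC and length trends gave 2 beside 2431. At an adjusted p under 0.01 there were 0 beside 994. With 1 mouse left out 1 to 2 regulators passed. The second was Rbfox1 without wild-type mouse 3 (beside 2496 genes) and Qk without wild-type mouse 1 (beside 1904). A fit with wild-type mouse 3 left out and the trends removed together was chosen after seeing the data. In it 3 regulators passed beside 3082 genes, with Mbnl1 as lower (-0.24, adjusted p = 0.0327, limma).

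Differences near 0 changed sign. With sample weights Mbnl1 was -0.22, Celf1 -0.043 and Celf2 -0.075. With the Y-linked covariate they were -0.29, -0.026 and -0.031. With trends removed Mbnl1 was -0.12, Celf2 -0.11 and Rbm20 0.041, and with mouse 3 left out as well Celf1 was -0.0099 and Celf2 -0.023. Rbm20 was 0.020 after quantile normalization. With 1 mouse left out, Mbnl1 ranged from -0.20 to 0.19, Celf1 from -0.0067 to 0.19, Celf2 from -0.0070 to 0.11 and Rbm20 from -0.14 to 0.064.

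Of all 14289 tested genes, 4220 passed with sample weights, 2431 with trends removed and 994 at an adjusted p under 0.01, against 1956. With mouse 3 left out and trends removed 3082 passed, and with 1 mouse left out 1400 to 2496. Without an expression limit 1563 of 28153 genes passed. Median centring gave 942 higher and 979 lower genes, against 1100 and 856. Of the other splicing regulators, 1 passed without an expression limit, 7 with sample weights, 5 with trends removed, 0 at an adjusted p under 0.01, 8 with mouse 3 left out and trends removed, and 0 (without knock-out mouse 2) to 7 (without wild-type mouse 3) with 1 mouse left out. Of the splicing targets, 15 passed with sample weights, 5 at an adjusted p under 0.01, 15 with mouse 3 left out and trends removed, and 5 to 15 with 1 mouse left out. Of 33 other genes named from the lists 20 kept their call throughout, and of the 9 genes nearest in pattern 5 did, while 3 lost it at least once (Sec16b, Tnik and Mcu) and 1 gained it (Zfp770). None in either group changed sign. The causes were not tested.

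The replicate numbers did not pair the mice (correlations of deviations from -0.22 to 0.067, and 0 of 10 mice correlated best with their own number). With the number as a replicate block 1579 genes passed and 1 regulator, Rbfox2 (adjusted p = 0.0185), and no regulator's call changed.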

Other observations

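Genes most alike in pattern were sought for the 3 regulators with the smallest adjusted p, by the root mean square distance between values centred on each gene's mean over the 10 mice. This is a description, since 14289 genes were searched. Nearest to Rbfox2 were Sec16b (distance 0.067), Tnik (0.090) and Mcu (0.090), where the median of all tested genes was 0.38. Mcu encodes the pore of the mitochondrial calcium uniporter. Their knock-out means were higher by 0.49, 0.51 and 0.54 (adjusted p from 0.0228 to 0.0273, limma). A difference near that of Rbfox2 was set by the search and is no separate result. Among the 3 nearest to Qk were Zfp770 (0.10) and Foxn2 (0.13), and nearest to Mbnl2 were Mars2 (0.060), Kdm1b (0.068) and Agfg1 (0.072). None of these 5 passed.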
